A study of Salmo salar with 8 samples.

Results

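Gills of Atlantic salmon smolts were compared with gills of parr, both taken in freshwater and in constant light. The comparison used the 2 samples of time point T3 and the 2 samples of T1, 4 of the 8 samples of a single nuclei RNA sequencing series, grouped by their labels. All fish were of a commercial (Aquagene) strain raised in freshwater from hatching. T1 fish were parr under constant light, sampled at the start of the experiment at an age of 7 months. T3 fish had been kept on a short photoperiod of 8 h light and 16 h darkness per day, had then been returned to constant light, and were called smolts. The labels give 8 weeks for each of these periods, whereas the methods place the T3 sampling on experimental day 110, 50 days after the return. The other 4 samples were T2 fish, taken on the short photoperiod, and T4 fish, which were fish of the T3 cohort moved to full strength seawater for 24 h. No parr kept in constant light throughout were sampled at the age of the T3 fish, so that photoperiod history and age cannot be told apart. The fish that remained after T1 were moved to smaller tanks, so that housing differed as well and cannot be told apart either. The labels do not say whether a sample is 1 fish or a pool, and p-values therefore measure only the spread between samples.

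Smoltification is the change by which freshwater parr become fish able to live in the sea. In the gill, mitochondrion-rich cells (ionocytes) take up salt in freshwater and secrete it in seawater, and both tasks are powered by a sodium pump in the cell membrane. The gill epithelium also excretes ammonia through Rh glycoproteins and carbon dioxide with the help of carbonic anhydrases, and it houses lymphoid and myeloid cells that guard its mucosal surface.

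Nuclei were captured in droplets and their transcripts counted by unique molecular identifiers (UMIs), so that each captured molecule counts once. The T1 samples held 2763 and 1982 nuclei with 3730457 and 2894923 UMIs, and the T3 samples 2659 and 2375 nuclei with 3469522 and 3257730 UMIs. A median nucleus held 801 and 904 UMIs at T1 and 918 and 924 at T3. Nuclei with 2500 or more detected genes gave 23.9% and 26.8% of the UMIs at T1 and 16.5% and 19.4% at T3. In the T2 samples, whose levels are also given below, such nuclei gave 8.43% and 47.0% of the UMIs. Nuclei under 500 UMIs made up 21.0% and 0.286% of the nuclei in these T2 samples. Between 0 and 3 cell barcodes were shared by a T1 and a T3 sample. UMIs were summed over all nuclei of a sample and given as CPM, the UMIs of a gene per 1000000 UMIs of the sample after TMM normalization. Over 12543 genes with a mean of at least 50 UMIs per sample the Spearman correlation of log2 CPM was 0.893 between the T1 samples and 0.929 between the T3 samples, against 0.828 to 0.847 across the groups, and the T3 samples lay closer to the T4 samples (0.915 to 0.947). Ionocytes, which mark the tissue as gill, were present in all 4 samples, with their regulator foxi3a (LOC106603898) at 209.7 and 178 CPM in the T1 samples and 105 and 105 CPM in the T3 samples (adjusted p = 0.0616 in the test described next).

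Smolt gills differed from parr gills in a small set of strongly changed genes and a larger set with weaker support. Carbonic anhydrase 4-like, the sialic acid genes GNE and CMAH-like, LITAF and egln2 rose. A copy of the ammonia channel RHCG, an NLRP1-like gene, the chemokine cxl10 and the leukocyte genes lyn and spic fell. Of 24815 genes tested, 31 (0.125%) passed an adjusted p of 0.01 (quasi-likelihood test of edgeR, p-values adjusted over all genes by the Benjamini-Hochberg method), of which 13 (0.0524%) were higher and 18 (0.0725%) lower at T3. The words rose and fell are used here for these genes. Their log2 fold changes ran from 1.90 to 5.56 upward and from -1.68 to -4.80 downward, and in each of the 31 the T1 and T3 samples did not overlap. Groups without overlap were common, since T3 lay above T1 in 23.6% and below T1 in 23.7% of all genes tested. At an adjusted p of 0.05 the number was 474 genes (1.91%), 131 higher (0.528%) and 343 lower (1.38%). An unadjusted p under 0.05 was found in 4025 of the 24815 genes. Fewer cells of a type and less RNA per cell cannot be told apart in sums over a sample.

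These counts rested on all samples together. Without T1 replicate 1, edgeR called 0 genes at 0.01 (3744 had an unadjusted p under 0.05), and the adjusted p of the 31 genes ran from 0.0112 to 0.0478. The counts were 1 higher and 4 lower without T1 replicate 2, and 1 and 0 without T3 replicate 1 and likewise without T3 replicate 2. In the fits without these T3 samples 18 and 17 of the 31 genes had an adjusted p of 0.05 or more, the highest being 0.102 and 0.115. They were 5 and 4 without T2 replicate 1, 12 and 14 without T2 replicate 2, and 7 and 3 without T4 replicate 1 and likewise without T4 replicate 2. DESeq2 called 80 higher and 170 lower, all 31 among them, and gave an adjusted p to 15109 genes only. None of the 31 changed sign in any alternative. With T1 and T3 not overlapping in any of the 31, this could hardly have come out otherwise.

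**Figure D1:**
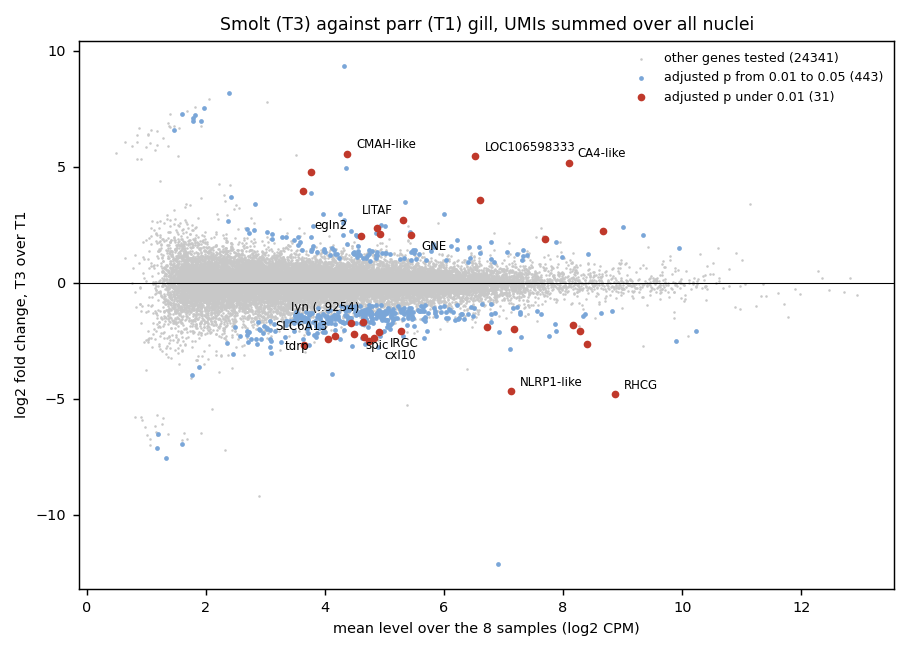
Each point is 1 of 24815 genes, with its mean level over the 8 samples (log2 CPM, horizontal) against the log2 fold change of T3 over T1 (vertical). The 31 genes with an adjusted p under 0.01 are red and those between 0.01 and 0.05 blue; points beyond 6 in either direction are genes without a UMI in 1 of the 2 groups, whose fitted fold change has no bound.

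The beta subunits of the sodium pump, which bring it to the membrane, are listed at 4 loci named for ATP1B1. Their log2 fold changes ran from -0.06 (LOC100136391) to 0.78 (at1b1), and none passed 0.05 (smallest adjusted p = 0.23). No FXYD gene passed 0.05 either, the regulator fxyd11b standing at 384 and 254 CPM in parr and 417 and 525 CPM in smolts.

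Other ionocyte transporters passed the weaker threshold only, or neither, with edgeR. The sodium/proton exchanger slc9a2 (LOC106586777) had 52.9 and 40.7 CPM at T1 and 123 and 149 CPM at T3. Its log2 fold change of 1.54 (standard error 0.24) passed 0.05 only (adjusted p = 0.0157). The sodium-chloride cotransporter slc12a3 (LOC106560848), a carrier that takes up salt, had 19.6 and 28.3 CPM in parr and 5.31 and 3.38 CPM in smolts, and it too passed 0.05 only (log2 fold change -2.44, standard error 0.38, adjusted p = 0.0157). T1 and T3 did not overlap for either gene. These 2 were the members past 0.05 among 20 ionocyte transporters and channels tested (10%, against 1.91% of all genes), whose median log2 fold change was 0.15.

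The salt secretion genes of the seawater ionocyte did not pass either threshold. The sodium-potassium-chloride cotransporter nkcc1a, which loads chloride into the cell, had 122 and 125 CPM in the T1 samples and 242 and 291 CPM in the T3 samples (log2 fold change 1.11, standard error 0.26, adjusted p = 0.0603). DESeq2 and a setting with all genes unfiltered called it at 0.01. The apical chloride channel CFTR (LOC100136366) had 26.0 and 28.7 CPM and 32.7 and 41.2 CPM (log2 fold change 0.43, standard error 0.26, adjusted p = 0.456). For both genes each T3 sample lay above each T1 sample. The 20 genes together held 1751 and 1979.7 UMIs per 1000000 at T1 and 1792 and 1977 at T3, which overlap. Summed levels of lists are UMIs per 1000000 UMIs of the sample, without TMM scaling. They run over all matched members, including those too low to be tested.

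**Figure D2:**
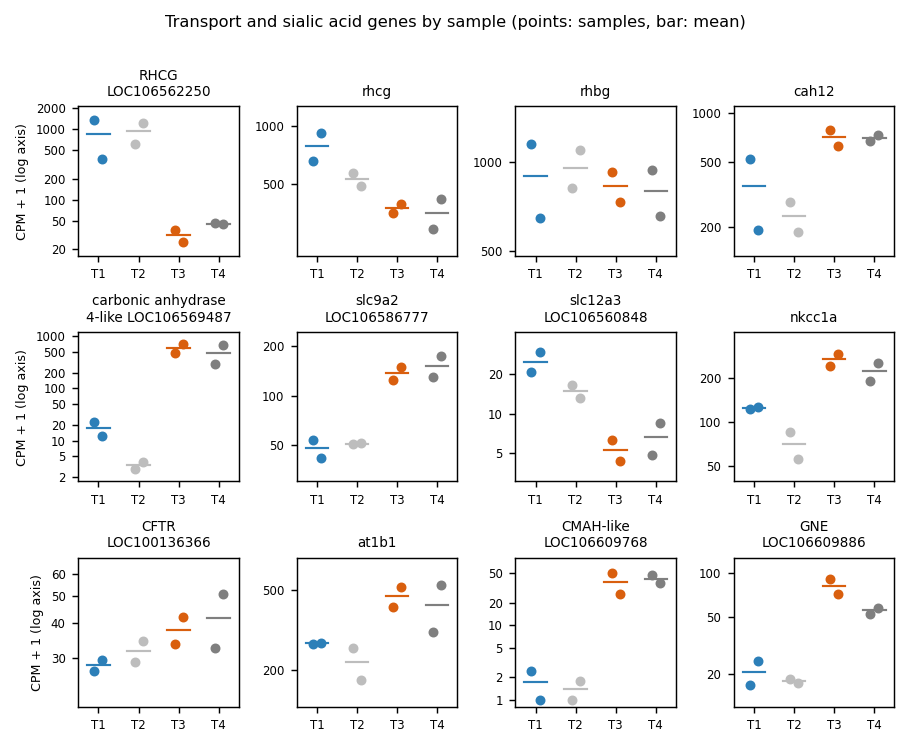
Level of 12 transport and sialic acid genes in each of the 8 samples, as TMM-normalized CPM plus 1 on a log axis, with 1 point per sample and a bar at the mean of each time point. For RHCG (LOC106562250), rhcg and slc12a3 the T3 points lie below the T1 points, for rhbg they overlap, and for the other 8 genes they lie above.

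Rh glycoproteins are membrane channels for ammonia, and RHCG is the form of the apical membrane. The RHCG copy LOC106562250 had 1329.5 and 381 CPM in the T1 samples and 36.6 and 24.6 CPM in the T3 samples. It fell 27.9-fold (log2 fold change -4.80, standard error 0.60, adjusted p = 0.00827), the largest fall among the 31 genes. The T1 samples differed from each other by more than 3-fold, and leaving out T1 replicate 1 moved the log2 fold change to -3.64. Its adjusted p was 0.0808 without T3 replicate 1 and 0.106 without T3 replicate 2.

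The other Rh genes did not pass the test with edgeR. A second RHCG locus, LOC106587392, had 3649 and 1597 CPM at T1 and 2378 and 2624 CPM at T3, within the spread of the T1 samples (log2 fold change -0.07, standard error 0.40, adjusted p = 0.959). The gene rhcg had 659 and 921 CPM and 351 and 391 CPM and missed both thresholds (log2 fold change -1.09, standard error 0.28, adjusted p = 0.0768). The basolateral form rhbg had 1148 and 642 CPM and 918 and 730.0 CPM, and rhag (LOC106571195), the erythrocyte form in mammals, 206 and 155 CPM and 236 and 212 CPM. Their log2 fold changes were -0.12 and 0.31 (adjusted p = 0.909 and 0.769).

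Carbonic anhydrases interconvert carbon dioxide and bicarbonate, and the type 4 enzyme is held on the outer face of the membrane. Carbonic anhydrase 4-like (LOC106569487) had 21.7 and 11.1 CPM in the T1 samples and 478 and 706 CPM in the T3 samples. It rose 35.9-fold (log2 fold change 5.16, standard error 0.48, adjusted p = 0.00248), and its highest adjusted p with any sample left out was 0.017. On the short photoperiod it had 1.82 and 2.87 CPM, below T1, and after seawater 298 and 667 CPM. Carbonic anhydrase 12-like (LOC106569486) had 842 and 261 CPM at T1 and 896 and 820.4 CPM at T3, and cah12, also named for carbonic anhydrase 12, 517 and 192 and 784 and 629 CPM. Neither passed a threshold (adjusted p = 0.57 and 0.261). Of the 10 Rh and carbonic anhydrase genes tested, 1 rose and 1 fell (against 0.0524% and 0.0725% of all genes). Their median log2 fold change was 0.28.

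Both sialic acid enzymes that carry a name among the called genes rose. GNE makes the first dedicated precursor of sialic acid, the sugar that caps many mucins and cell surface glycans, and CMAH is known in mammals for hydroxylating its activated form. GNE (LOC106609886) had 15.6 and 23.5 CPM in parr and 90.0 and 71.0 CPM in smolts, 4.13-fold higher (log2 fold change 2.05, standard error 0.25, adjusted p = 0.00723). The CMAH-like gene LOC106609768 had 5 and 0 UMIs in the T1 samples and 179 and 82 UMIs in the T3 samples, or 1.44 and 0 CPM against 50.1 and 25.2 CPM. Its log2 fold change was 5.56 (standard error 0.67, adjusted p = 0.00723), the largest rise among the 31, and it is loosely bounded since parr had so few UMIs. Without T1 replicate 1 the T1 group holds no UMI of this gene and the fold change has no upper limit. In the T2 samples the pair stood near T1, GNE at 17.5 and 16.2 CPM and the CMAH-like gene at 0 and 0.782 CPM.

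The remaining 2 named genes that rose were LITAF and egln2. LITAF (LOC106564305) encodes a small protein of endosomal membranes and had 7.51 and 12.7 CPM at T1 and 48.7 and 54.1 CPM at T3 (log2 fold change 2.35, standard error 0.29, adjusted p = 0.00827). Egln2, a prolyl hydroxylase that marks hypoxia-inducible factor for breakdown when oxygen is present, had 8.96 and 11.1 CPM and 37.5 and 42.1 CPM (log2 fold change 1.99, standard error 0.23, adjusted p = 0.00618). In the T2 samples LITAF stood at 9.85 and 9.38 CPM and egln2 at 8.76 and 8.86 CPM, near T1 in both cases.

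A further 8 genes that rose carry no name in the tables used. The one with the smallest adjusted p of all genes, LOC106598333, had 1.73 and 1.63 CPM in the T1 samples and 87.0 and 63.3 CPM in the T3 samples (log2 fold change 5.45, standard error 0.33, adjusted p = 0.000199). It was already at 157 and 199 CPM on the short photoperiod, above T3, and it alone of the 31 stayed under 0.01 whichever T3 replicate was left out. LOC106589946 had the highest level of the unnamed genes that rose, 145 and 128 CPM at T1 and 686 and 605 CPM at T3 (log2 fold change 2.24, standard error 0.24, adjusted p = 0.00472). These 2 unnamed genes were picked after their values had been seen.

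Several named genes that fell belong to leukocytes or to families of immune defence. The chemokine cxl10 (CXCL10), which draws T cells and is induced by interferon in mammals, had 57.2 and 46.6 CPM in parr and 13.1 and 6.76 CPM in smolts. It fell 5.17-fold (log2 fold change -2.37, standard error 0.29, adjusted p = 0.00733). IRGC (LOC106580271), of the immunity-related GTPase family, went from 74.0 and 64.8 CPM to 12.3 and 19.4 CPM (log2 fold change -2.14, standard error 0.25, adjusted p = 0.00684). In the T2 samples IRGC stood at 23.4 and 19.5 CPM, close to T3, and cxl10 at 39.0 and 42.7 CPM, closer to T1.

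An NLRP1-like gene, LOC106592855, showed the second largest fall. NLRP1 is an inflammasome sensor in mammals. Its salmon relative had 237 and 362 CPM at T1 and 14.3 and 8.91 CPM at T3, a 25.7-fold fall (log2 fold change -4.68, standard error 0.45, adjusted p = 0.00248). The T2 samples were at 317 and 138 CPM and the T4 samples at 15.6 and 18.6 CPM, so that the T2 and T1 levels overlapped and the fall was seen from T3 on.

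A lyn copy and spic fell as well. Lyn encodes a Src family kinase of myeloid and B cells in mammals. The lyn copy LOC106569254 had 42.5 and 38.1 CPM in the T1 samples and 12.6 and 12.6 CPM in the T3 samples (log2 fold change -1.68, standard error 0.21, adjusted p = 0.00842). Spic, an ETS transcription factor of macrophages in mice, had 61.0 and 76.9 CPM and 14.3 and 18.1 CPM (log2 fold change -2.09, standard error 0.26, adjusted p = 0.00851). The gene listed as lyn itself passed 0.05 only, with 25.7 and 36.2 CPM at T1 and 9.23 and 11.7 CPM at T3 (adjusted p = 0.0198). In these 3 genes the T1 and T3 samples did not overlap.

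SLC6A13 and tdrp, which also fell, have other roles or none that is sure. SLC6A13 (LOC106565344), a sodium-dependent transporter of GABA, had 39.3 and 35.5 CPM in parr and 9.51 and 6.45 CPM in smolts (log2 fold change -2.22, standard error 0.24, adjusted p = 0.00605). Tdrp had 24.8 and 34.9 CPM and 6.15 and 4.92 CPM (log2 fold change -2.42, standard error 0.28, adjusted p = 0.00618). In the T2 samples SLC6A13 was at 33.2 and 35.4 CPM and tdrp at 25.2 and 25.8 CPM, above T3 in both cases. Another 7 genes that fell carry no name, with log2 fold changes from -2.71 (LOC106592697) to -1.73 (LOC106584705).

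**Figure D3:**
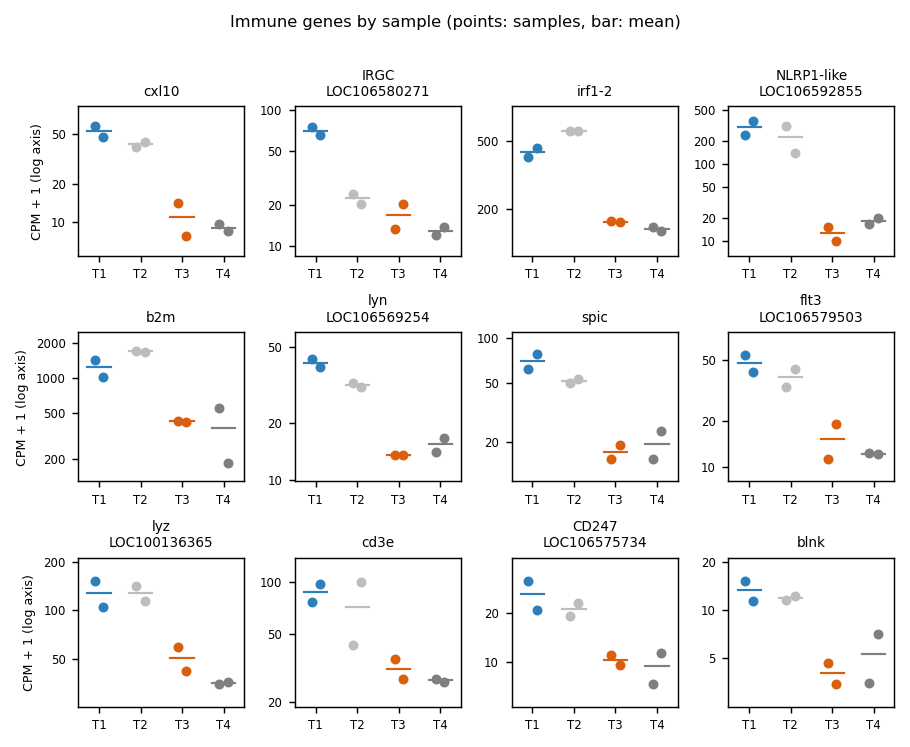
Level of 12 immune genes in each of the 8 samples, as TMM-normalized CPM plus 1 on a log axis, with 1 point per sample and a bar at the mean of each time point. In every panel both T3 points lie below both T1 points, cxl10, IRGC, the NLRP1-like gene, lyn and spic passed 0.01, and cd3e and b2m did not pass 0.05.

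Leukocyte marker lists had negative log2 fold changes almost throughout, with few members past a threshold. Of 12 T cell markers tested, all 12 had a negative log2 fold change, with a median of -1.13, and T3 lay below T1 without overlap in 11 (91.7%, against 23.7% of all genes). Only CD247 (LOC106575734), the zeta chain of the T cell receptor complex, passed 0.05 (8.33% of the list, against 1.38% of all genes lower), with 30.6 and 19.9 CPM in the T1 samples and 10.1 and 8.60 CPM in the T3 samples (log2 fold change -1.43, standard error 0.31, adjusted p = 0.0475). The receptor chain cd3e had 76.0 and 96.4 CPM and 34.7 and 26.1 CPM and missed it (log2 fold change -1.50, standard error 0.35, adjusted p = 0.0608). The killer T cell coreceptor cd8a (LOC100136450) was at 13.6 and 16.3 CPM and 6.99 and 6.45 CPM (adjusted p = 0.131). Summed over the list, T cell markers held 255 and 313 UMIs per 1000000 at T1 and 146 and 99.5 at T3.

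Of 15 dendritic cell, monocyte and neutrophil markers tested, 14 had a negative log2 fold change (median -0.96) and 3 (20%) passed 0.05, all lower, against 1.38% of all genes. Flt3 (LOC106579503), the growth factor receptor of dendritic cells, had 53.2 and 40.7 CPM at T1 and 10.3 and 18.1 CPM at T3 (log2 fold change -1.73, standard error 0.29, adjusted p = 0.0197). Lysozyme (lyz, LOC100136365), a bacteria-degrading enzyme, had 151 and 104 CPM and 58.4 and 41.2 CPM (log2 fold change -1.35, standard error 0.26, adjusted p = 0.0309). The third was spd2b, matched only through a synonym of the NADPH oxidase subunit ncf1, so that its place among myeloid markers is unsure. The counts of this list and of all leukocyte markers include it. The lysosomal membrane genes of the list stood near their T1 level, with cd68 at 482 and 484 CPM and 457 and 431 CPM and lamp2 at 177 and 189 CPM and 195 and 197 CPM (adjusted p = 0.879 and 0.872).

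B cells had 5 markers tested, all with a negative log2 fold change (median -0.80). The adaptor blnk, which passes on the B cell receptor signal, had 14.2 and 10.4 CPM at T1 and 3.63 and 2.46 CPM at T3 and was the member past 0.05 (log2 fold change -1.995, standard error 0.44, adjusted p = 0.0481), or 20% of this short list against 1.38% of all genes lower. Its second locus, LOC106576789, had 15.9 and 12.7 CPM and 3.63 and 6.45 CPM (adjusted p = 0.0732). Summed B cell markers were low throughout, at 66.5 and 62.5 UMIs per 1000000 in parr and 34.6 and 37.4 in smolts.

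The interferon response held 21 genes tested, all with a negative log2 fold change and a median of -0.79. Summed over all 23 matched genes, the list held 5118 and 2181 UMIs per 1000000 at T1 and 1392 and 1230.3 at T3. T1 replicate 1 stood far above the other 3 samples. Much of the sum in T1 replicate 1 came from the GBP1 locus described under other observations, which passed no threshold. At 0.05, 5 passed (23.8% against 1.38% of all genes), cxl10 among them. Irf1-2, a copy of the interferon regulatory factor gene IRF1, had 402 and 457 CPM in the T1 samples and 168 and 165 CPM in the T3 samples (log2 fold change -1.37, standard error 0.21, adjusted p = 0.0162). An interferon-induced protein 44-like gene (LOC106565178) had 34.4 and 46.9 CPM and 12.02 and 9.52 CPM (log2 fold change -1.91, standard error 0.27, adjusted p = 0.013). Irf7 and the antiviral GTPase mx2 were the others (adjusted p = 0.0429 and 0.0388). All of these had T3 samples below T1 samples, and irf1-2 was above T1 on the short photoperiod, at 575 and 572 CPM.

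Antigen presentation genes showed the same sign with none past 0.05, against 1.38% of all genes lower. All 19 tested had a negative log2 fold change, with a median of -0.91, and T3 lay below T1 without overlap in 11 (57.9%, against 23.7% of all genes). The sum over all 20 matched genes was 17349.6 and 9860.0 UMIs per 1000000 at T1 and 9789.8 and 8659 at T3. T1 replicate 2 thus lay close to T3 replicate 1. With nuclei of under 2500 genes T1 replicate 2, at 8461, lay below both T3 samples, at 9585 and 9021. With edgeR 9 had an unadjusted p under 0.05, against 4025 of all 24815 genes, and DESeq2 called 4 at 0.05. Beta-2-microglobulin (b2m), the light chain of class I molecules, had 1441 and 1033 CPM at T1 and 429.8 and 423 CPM at T3 (log2 fold change -1.54, standard error 0.43, adjusted p = 0.102). The peptide transporter tap1 had 119 and 101 CPM and 72.7 and 62.4 CPM and its partner tapbp 244 and 166 CPM and 127 and 86.0 CPM (adjusted p = 0.137 and 0.115). The class II chaperone cd74a (LOC106604844) overlapped, with 4500.5 and 2067 CPM against 2611 and 2202 CPM. Its log2 fold change of -0.45 turned positive without T1 replicate 1.

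Over the T cell, myeloid and B cell lists together, 0 of 32 markers passed 0.01 with edgeR, against 0.125% of all genes. With edgeR 20 had an unadjusted p under 0.05, against 4025 of all 24815 genes. DESeq2 called 2 at 0.01, against 80 higher and 170 lower of 15109 genes. DESeq2 gave an adjusted p to only 4 of 12 T cell, 12 of 15 dendritic cell, monocyte and neutrophil, and 2 of 5 B cell markers. The summed dendritic cell, monocyte and neutrophil markers were at 1508 and 1516 UMIs per 1000000 at T1 and 1123 and 994 UMIs per 1000000 at T3, without overlap. None of the T cell, B cell or myeloid markers tested was at 0 UMIs in any of the 4 samples. The part of cell numbers in the lower lyn, spic and cxl10 was not tested.

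Extracellular matrix genes were mostly higher in smolts. Of 74 tested, 69 had a positive log2 fold change (median 0.80), T3 lay above T1 without overlap in 55 (74.3%, against 23.6% of all genes) and below in 3. At 0.05, 5 passed (6.76%, against 0.528% of all genes), all higher, and none passed 0.01 with edgeR (against 0.125% of all genes). With edgeR 37 had an unadjusted p under 0.05, against 4025 of all 24815 genes, and DESeq2 called 6 at 0.01. Fibronectin (FN1, LOC106574791), an adhesive matrix protein, had 52.3 and 30.3 CPM at T1 and 99.0 and 129 CPM at T3 (log2 fold change 1.46, standard error 0.27, adjusted p = 0.0289). The type I collagen chain COL1A2 (LOC106570460) had 502 and 461 CPM and 1148 and 1534 CPM (log2 fold change 1.48, standard error 0.31, adjusted p = 0.0426).

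Col12a1, the laminin chain LAMC1 (LOC106569067) and the basement membrane collagen col4a1 (LOC106586666) were the other matrix genes past 0.05. Col4a1 had 19.4 and 14.0 CPM in parr and 37.2 and 38.7 CPM in smolts (adjusted p = 0.0497), and LAMC1 21.4 and 25.4 CPM and 49.2 and 46.1 CPM (adjusted p = 0.0371). The more abundant locus named COL4A1 (LOC106577877), whose product is described as a type IV collagen alpha-5 chain-like protein, had 633 and 569 CPM at T1 and 1382 and 966 CPM at T3 and did not pass (log2 fold change 0.97, standard error 0.35, adjusted p = 0.202). The whole list summed to 13330.0 and 13284 UMIs per 1000000 at T1 and to 22698 and 25454 at T3. Markers of vascular and pillar cells, a list without collagen genes, summed to 216 and 184 UMIs per 1000000 at T1. At T3 they summed to 212 and 209.7, which overlap T1. The part of cell numbers in the higher matrix genes was not tested.

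**Figure D4:**
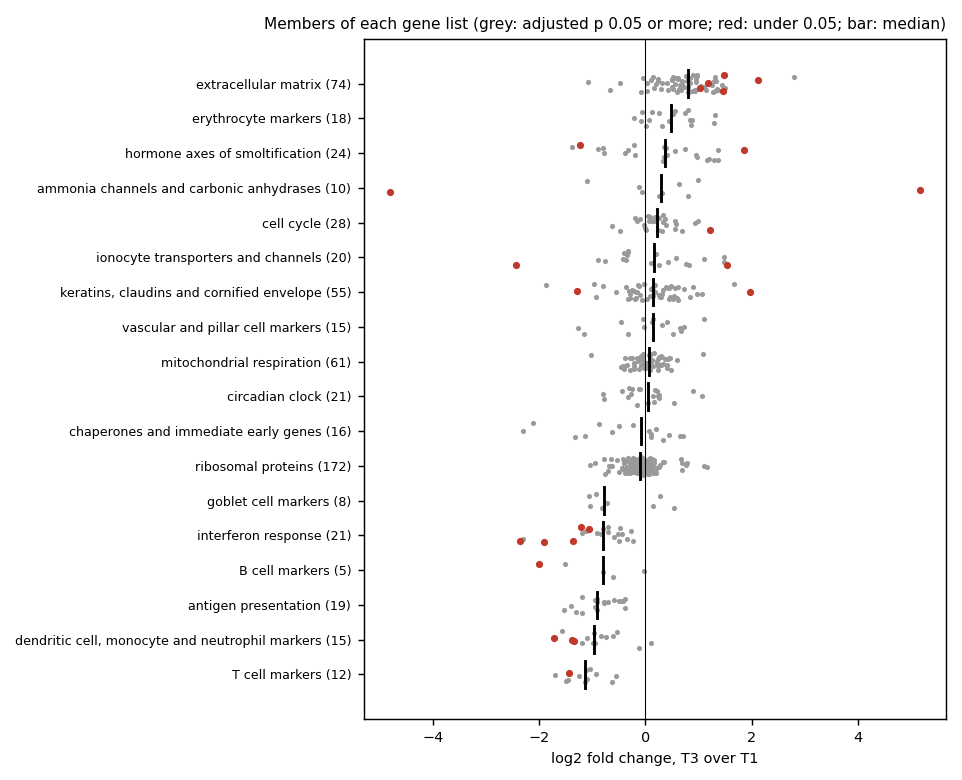
Log2 fold change of T3 over T1 (horizontal) of every tested member of 18 gene lists, with the number tested in brackets and a bar at the median. Leukocyte, antigen presentation and interferon lists have medians from -1.13 to -0.79, extracellular matrix has 0.80, and ribosomal and mitochondrial genes lie around 0.

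Few tight junction and barrier genes passed a threshold. Claudins seal the space between epithelial cells and some form pores for ions. Cldn10l2 (LOC106586095), named claudin-10-like after a pore-forming family, had 3.47 and 5.54 CPM in the T1 samples and 18.2 and 16.9 CPM in the T3 samples (log2 fold change 1.97, standard error 0.40, adjusted p = 0.0401). Cldn3c (LOC106563774) had 228 and 228 CPM and 97.9 and 89.7 CPM (log2 fold change -1.28, standard error 0.20, adjusted p = 0.0157). Both passed 0.05 only, and they were the 2 of 55 keratin, claudin and cornified envelope genes that did so (3.64%, against 1.91% of all genes). A claudin-4-like copy, LOC106563812, had 507 and 159 CPM and 85.0 and 97.4 CPM, with more spread within T1 (adjusted p = 0.0722). The lipid transporter abca12 of the skin barrier had 789 and 519 CPM and 827 and 989 CPM (adjusted p = 0.448).

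Hormone and growth genes had 2 of 24 members past 0.05 (8.33%, against 1.91% of all genes). The binding protein igfbprp1 (IGFBP7) had 2.60 and 4.56 CPM in parr and 10.1 and 16.0 CPM in smolts (log2 fold change 1.86, standard error 0.40, adjusted p = 0.0458), and the cytokine and prolactin signal transducer sta5b 24.6 and 28.02 CPM and 12.3 and 9.83 CPM (log2 fold change -1.24, standard error 0.25, adjusted p = 0.0374). The receptor of growth hormone, which promotes seawater tolerance in salmon, had 11.3 and 10.4 CPM at T1 and 21.8 and 34.4 CPM at T3 at LOC100136463 (log2 fold change 1.37, standard error 0.32, adjusted p = 0.062). The receptor of prolactin, the freshwater hormone, had 63.3 and 66.5 CPM and 29.4 and 40.3 CPM (log2 fold change -0.90, standard error 0.22, adjusted p = 0.0717). Neither receptor passed 0.05, although T1 and T3 did not overlap for either.

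The remaining lists gave little. Cyclin D1 (ccnd1), which drives entry into the cell cycle, was the member of 28 cell cycle genes past 0.05 (3.57%, against 1.91% of all genes), with 91.6 and 87.3 CPM at T1 and 215 and 200.02 CPM at T3 (log2 fold change 1.21, standard error 0.22, adjusted p = 0.0279). It had reached 208 and 156 CPM on the short photoperiod. Among 18 erythrocyte markers none passed 0.05 with edgeR (against 1.91% of all genes). An unadjusted p under 0.05 was found in 5 of them, against 4025 of all 24815 genes, and DESeq2 called 1 at 0.01. T3 lay above T1 in 11 (61.1%, against 23.6% of all genes) and below in 0 (against 23.7%). Over all 21 matched markers, the sum was 8291 and 8785 UMIs per 1000000 in parr and 12668 and 12102 in smolts, without overlap. The T4 samples were far apart, at 5308 and 13483. The log2 ratio of T3 over T1 was 0.54, close to the standard deviation within time points over the 8 samples (0.49). With hemoglobin genes left out, 14 genes were higher and 18 lower at 0.01.

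With edgeR, 0 of 8 goblet cell, 15 vascular and pillar cell and 21 clock genes passed 0.05, against 1.91% of all genes. Neither did any of 16 chaperone and immediate early or 61 mitochondrial respiration genes. In this order, the numbers with an unadjusted p under 0.05 were 2, 3, 2, 7 and 0, against 4025 of all 24815 genes. DESeq2 gave an adjusted p to 6, 8, 14, 12 and 52 of these and called 0. Of 172 ribosomal protein genes 0 passed with edgeR (13 had an unadjusted p under 0.05), and DESeq2 called 3 at 0.05. Median log2 fold changes were -0.78 for goblet cell, 0.06 for clock, 0.06 for mitochondrial and -0.10 for ribosomal genes. The mucin-2-like gene LOC106608496 had 221 and 96.1 CPM at T1 and 88.9 and 65.1 CPM at T3 (adjusted p = 0.16), with T1 replicate 1 far above replicate 2.

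A last list held 21 loci of genes already named for smoltification or seawater in gills of the same experiment, and it is therefore not independent evidence. Of its members described here cxl10 passed 0.01, and flt3 and col4a1 passed 0.05. Those not given above were a CD40 copy (LOC106572807) with 87.0 and 104 CPM and 44.5 and 32.6 CPM (adjusted p = 0.0553), a second locus named CD40 but described as a tumor necrosis factor receptor superfamily member 14-like gene (LOC106572765) with 145 and 557 CPM and 211 and 149.9 CPM, csf2rb (LOC106600897) with 4.91 and 5.54 CPM and 3.36 and 1.84 CPM, and npm3 with 4.33 and 5.21 CPM and 4.47 and 6.45 CPM. None of the last 3 passed 0.05 (adjusted p = 0.439, 0.399 and 0.893).

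The T2 and T4 samples place these differences in time. They are not independent of the choice of genes, since all 8 samples shared the estimate of spread in the fit. The T2 samples also differed from each other in depth, as given above. With only the T1 and T3 samples 8 of the 31 genes stayed under 0.01. On the log2(CPM + 1) scale the T2 mean lay nearer to T1 than to T3 for 11 of the 13 genes that rose and 15 of the 18 that fell. The exceptions were LOC106598333 and LOC106598560 among those that rose, and IRGC, LOC106592697 and LOC106582936 among those that fell. The T4 mean lay nearer to T3 for all 13 that rose and for 17 that fell. The exception was LOC106605563, at 226 and 202 CPM at T1, 52.6 and 52.8 CPM at T3 and 96.4 and 129 CPM at T4. The same counts over all genes tested were not made. In the sample correlations over 12543 genes, T2 lay closer to T1 (0.883 to 0.902) than to T3 (0.807 to 0.851). T4 lay closer to T3 (0.915 to 0.947) than to T1 (0.794 to 0.831). The counts are therefore not shown to be particular to the called genes. Carbonic anhydrase 4-like was lower at T2 than at T1 in both samples before its rise, while RHCG at T2, with 623 and 1240.0 CPM, overlapped T1.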

How the data were processed

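Single nuclei of gill were sequenced with the 10x Genomics 3′ v3 chemistry. The authors aligned reads to the ICSASG_v2 genome and deposited raw UMI counts per gene and nucleus for each sample, without normalization (Cell Ranger, version 3.1.0 in the extraction protocol and 3.0.1 in the submitters' processing notes). UMIs of all deposited nuclei were summed per sample; no doublet caller was run and no nuclei were removed as doublets, and how the authors treated doublets is not given in the sources used here. The 4 samples held 2894923 to 3730457 UMIs. Genes passing filterByExpr (minimum count 10) were tested with the edgeR 4.0.16 quasi-likelihood test in R 4.3.3, with TMM, all 8 samples, groups T1 to T4, contrast T3 minus T1, no covariate and Benjamini-Hochberg adjustment (threshold 0.01, also 0.05). The script was tested on simulated data. Symbols came from RefSeq (Ssal_v3.1, names only, 3651 of 27587 locus identifiers) and from tables of the study (2917). These tables list markers of nuclei clusters and genes that changed in gills of the same experiment, so that named genes are a biased sample. Named genes were the 12 largest called changes in each direction, the 4 most abundant called genes in each direction, up to 4 called members of each list and the genes of the last list. Members past 0.05 only, and further genes given with values, were chosen after their values had been seen. The samples and gene lists were chosen with earlier results of these data known. Some items are not reported here. Alternatives were DESeq2 1.42.0, other scaling, filters, nuclei and samples, and a replicate block.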

Additional observations from a re-analysis of the deposited data

How the results depend on the processing

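The 31 genes kept their direction in all alternatives. As T1 and T3 did not overlap in any of them, this could hardly fail and is no support. Their number did not hold. The 13 higher and 18 lower became 131 and 343 at a threshold of 0.05 and 20 and 23 with library size only. With no filter on low counts (34514 genes tested) they became 369 and 814, and with only the T1 and T3 samples 8 and 4. Nuclei holding at least 200 and under 2500 genes gave 12 and 9. Nuclei thinned to 500 UMIs gave 4 and 0 (2912 genes had an unadjusted p under 0.05), and DESeq2 gave 80 and 170. Leaving out each of the 8 samples in turn gave 0 to 12 higher and 0 to 14 lower. RLE size factors and leaving out hemoglobin genes gave 14 and 18. Fewer samples lower the residual degrees of freedom and change which genes pass the filter. Thinning lowers the counts and leaves out nuclei under 500 UMIs. The cause of the shifts was not tested. The replicate number as a block gave 14 and 13 with 23 of the 31 among them; RHCG (LOC106562250), GNE (LOC106609886) and lyn (LOC106569254) had adjusted p of 0.0128, 0.011 and 0.0131. The labels do not say that the numbers pair samples, and the correlation of same-numbered deviations from the group means ran from -0.092 (T1 with T3) to 0.25 (T3 with T4) over the 6 pairs of time points. Of 68 named genes tried, 4 changed sign: rhbg was 0.039 with nuclei of under 2500 genes, 0.20 with thinned nuclei and -0.48 to 0.36 with samples left out (log2 fold changes), CD40 (LOC106572765) ran from -1.62 to 0.31, cd74a (LOC106604844) from -0.90 to 0.22 and npm3 from -0.088 to 0.44 with samples left out. The summed B cell markers moved from -0.84 to -0.95 (log2 of T3 over T1) with nuclei of under 2500 genes. With 2 samples a group, a difference that was not called is not shown to be absent, and genes with a handful of UMIs have loosely bounded fold changes.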

Other observations

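Further genes were picked after their values had been seen, and those past 0.05 but not 0.01 belonged to no list. The FKBP5, CRY1 and GBP1 loci given beside them are members of the hormone, clock and interferon lists and passed neither threshold. Both ZBTB16 loci, whose product is a transcription factor induced by glucocorticoids in mammals, were higher in smolts. LOC106567727 had 18.5 and 13.0 CPM at T1 and 119 and 131 CPM at T3 (log2 fold change 2.97, standard error 0.44, adjusted p = 0.014 with edgeR), and LOC106603639 10.7 and 11.7 CPM and 64.0 and 60.8 CPM (log2 fold change 2.48, standard error 0.38, adjusted p = 0.0151). The glucocorticoid-induced cochaperone fkbp5 did not pass, with 56.9 and 29.6 CPM at T1 and 56.8 and 141 CPM at T3 (log2 fold change 1.19, standard error 0.57, adjusted p = 0.336), and its T3 and T1 samples overlapped. T3 replicate 2 was the higher replicate for fkbp5, for a second FKBP5 locus (LOC106565346, 81.1 and 202 CPM at T3) and for CRY1 (LOC106565112, 54.0 and 114 CPM at T3). The fatty acid elongase elovl6 had 13.6 and 15.6 CPM in parr and 41.4 and 90.0 CPM in smolts (log2 fold change 2.17, standard error 0.35, adjusted p = 0.0182).

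Among lower genes, the epithelial membrane protein gene MAL (LOC106577163) had 378 and 143 CPM at T1 and 27.7 and 45.2 CPM at T3 (log2 fold change -2.84, standard error 0.42, adjusted p = 0.014). A C-C motif chemokine 20-like gene (LOC106570861), of a family that draws lymphocytes and dendritic cells to mucosa in mammals, had 203 and 154 CPM and 47.8 and 25.2 CPM (log2 fold change -2.28, standard error 0.35, adjusted p = 0.0157). On the short photoperiod this chemokine stood above T1, at 469.6 and 775 CPM. The beta-2 integrin gene itb2 of leukocytes had 113 and 123 CPM at T1 and 38.6 and 38.4 CPM at T3 (log2 fold change -1.61, standard error 0.23, adjusted p = 0.0127), and the lymphocyte adaptor sash3 47.4 and 53.1 CPM and 16.5 and 16.3 CPM (log2 fold change -1.61, standard error 0.24, adjusted p = 0.015). A guanylate-binding protein locus, GBP1 (LOC106582502), had 4040.0 and 541 CPM in the T1 samples and 519 and 412 CPM in the T3 samples, T1 replicate 1 standing far above the other 3 (adjusted p = 0.19).

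Among genes at an adjusted p under 0.05, 9 had no UMI in either T1 sample and 5 none in either T3 sample. Angiotensinogen (agt) had 0 UMIs in both T1 samples, 29 and 17 UMIs at T3, and 15 and 29 UMIs at T4. Taking 3 counts over the T1 group as its limit, agt was at least 15.1-fold higher in these smolt samples. This limit covers counting alone and leaves out the spread between samples. The unnamed locus LOC106605273 had 851 and 247 UMIs in the T1 samples, 0 in both T3 samples, 119 and 2134 at T2 and 96 and 18 at T4. By the same counting limit it was at least 372-fold lower in these T3 samples. Its spread within T2 was over 10-fold, so that this value does not bound the difference between the groups.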
